A study of Mus musculus with 9 samples.

Results

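Isg15, Rsad2, Cmpk2, Bst2, Xaf1, Ifi27l2a, Ifi44 and Rtp4 are 8 interferon-stimulated genes whose products act against viruses or in the interferon response, outside the large Ifit, Oas, Mx and Gbp families. They were taken by name from a table of read counts for 54532 mouse genes, over all 9 libraries, and all 8 were among the 14264 genes with enough reads to be tested. The libraries came from osteoclasts, the bone-resorbing cells of the macrophage lineage, grown from mouse bone marrow in RANKL (10 ng/ml), the cytokine that drives their formation, and M-CSF (20 ng/ml), which keeps the precursors alive. WT_CTR cells carried no labelled gene change and were left untreated. KO_CTR cells were labelled as deficient in Acod1, the enzyme that makes itaconate, and were likewise untreated. KO_4OI cells carried the same Acod1 label and were given, on day 1, the itaconate ester 4-octyl-itaconate (4-OI), which crosses membranes, at 50 µM. RNA was taken on day 3 in every group, with 3 libraries a group. No group of wild-type cells with 4-OI and no group given a vehicle alone was analysed here, so an effect of 4-OI is seen only in cells labelled Acod1-deficient and against untreated cells. Whether replicates are separate mice or repeat cultures is not stated in the labels; each p-value therefore reflects variation among 3 libraries a group, some of which may be technical.

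Type I interferon binds a receptor made of Ifnar1 and Ifnar2, which acts through the kinases Jak1 and Tyk2 to send a complex that contains Irf9 into the nucleus. There it binds the interferon-stimulated response element (ISRE) in front of genes such as these. In osteoclast precursors RANKL is known to induce a low level of interferon-beta, which restrains differentiation. Within the set, Isg15 is a ubiquitin-like protein that is joined to other proteins. Rsad2 (viperin) converts a nucleotide into one that stops viral RNA synthesis, and Cmpk2 is a mitochondrial nucleotide kinase. Bst2 (tetherin) holds budding virions at the cell membrane, and Xaf1 opposes the caspase inhibitor Xiap. Ifi27l2a is a small hydrophobic protein of the Ifi27 family, Ifi44 is a cytoplasmic interferon-induced protein, and Rtp4 is a chaperone that helps some receptors reach the cell surface.

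The windows from 250 bases before to 50 after the gene start are shown for 4 members, because they include the neighbours Rsad2 and Cmpk2, which differed in response, and Bst2, which stood apart from the rest. Sequences are from RefSeq on build GRCm38.p6, 5′ to 3′ on the strand of the gene, and 6 of the 8 members had a window in that table, all but Ifi27l2a and Rtp4. Capitals mark matches to the core of the ISRE, searched on both strands as the letters GAAA, any 2 bases and GAAA again. The windows lie at chr4:156200769-156201068 on the minus strand, chr12:26456403-26456702 on the minus strand, chr8:71537423-71537722 on the minus strand and chr12:26468965-26469264 on the plus strand.
Isg15: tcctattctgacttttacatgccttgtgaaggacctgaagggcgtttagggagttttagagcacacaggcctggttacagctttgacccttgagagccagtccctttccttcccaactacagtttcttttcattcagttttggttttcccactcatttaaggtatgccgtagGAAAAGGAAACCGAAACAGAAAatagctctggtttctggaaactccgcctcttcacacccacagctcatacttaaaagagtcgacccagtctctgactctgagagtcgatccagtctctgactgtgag
Rsad2: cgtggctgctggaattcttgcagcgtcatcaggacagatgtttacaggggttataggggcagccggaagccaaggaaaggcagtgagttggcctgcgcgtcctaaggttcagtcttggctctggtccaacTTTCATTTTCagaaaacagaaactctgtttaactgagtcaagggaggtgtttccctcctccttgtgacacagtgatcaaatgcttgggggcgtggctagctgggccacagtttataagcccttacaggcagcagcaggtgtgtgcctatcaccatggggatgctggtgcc
Bst2: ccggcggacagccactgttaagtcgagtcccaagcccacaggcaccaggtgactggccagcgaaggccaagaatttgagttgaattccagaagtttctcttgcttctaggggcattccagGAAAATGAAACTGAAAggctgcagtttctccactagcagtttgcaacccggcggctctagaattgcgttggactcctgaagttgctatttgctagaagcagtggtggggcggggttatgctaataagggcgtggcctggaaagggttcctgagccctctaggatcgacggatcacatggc
Cmpk2: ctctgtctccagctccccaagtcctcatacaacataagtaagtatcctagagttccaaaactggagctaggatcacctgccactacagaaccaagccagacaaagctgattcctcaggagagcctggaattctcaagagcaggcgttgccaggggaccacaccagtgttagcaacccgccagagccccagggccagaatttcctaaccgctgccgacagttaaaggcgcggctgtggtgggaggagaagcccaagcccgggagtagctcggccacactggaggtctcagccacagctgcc

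The ISRE core was found in 3 of the 6 windows, against 3.44% of all 32851 promoter windows of this length. Isg15 had 3 matches that overlap in a run beginning 78 bases before the start, and Bst2 had 2 overlapping matches beginning 130 bases before it. Rsad2 had 1 match on the opposite strand, 120 bases before the start, and Cmpk2, Xaf1 and Ifi44 had no exact match in this window. Sequences that depart from these letters were not searched for. The core bound by Nrf2, a factor that itaconate derivatives are known to activate, was searched as TGANNNNGC, which is in 41.3% of all windows. It was found in Isg15, Rsad2, Bst2 and Ifi44, and the narrower form TGACNNNGC, in 12.4% of all windows, was found in Rsad2 and Ifi44. These are matches of letters and do not show that a factor binds there.

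Library totals ran from 24830149 to 35143629 reads. The osteoclast label was met by its markers: all 10 of 10 had reads, and Ctsk, the main collagen-degrading protease, reached 8230 ± 398 CPM (reads scaled by library total; mean ± SD, n = 3) in WT_CTR, 9510 ± 1347 in KO_CTR and 3233 ± 71.8 in KO_4OI. The summed osteoclast markers were 24274 to 25616 CPM in WT_CTR, 27396 to 33791 in KO_CTR and 8939 to 11309 in KO_4OI, and all 10 fell with 4-OI. The 11 macrophage and monocyte markers summed to 6445 to 8188, 8724 to 12060 and 20292 to 26906 CPM in the same order. Most of the last sum was Lyz2, the macrophage lysozyme, at 4086 CPM in WT_CTR, 6063 in KO_CTR and 19332 in KO_4OI; with 4-OI 2 of the 11 rose and 3 fell against KO_CTR. The 8 conventional dendritic cell markers, all with reads, summed to 84.1 to 150.0 CPM in WT_CTR, 170 to 282 in KO_CTR and 88.8 to 94.5 in KO_4OI. Most of that sum in untreated cells was H2-Ab1, at 85.4 CPM in WT_CTR, 158 in KO_CTR and 36.6 in KO_4OI. Itgax went the other way with 4-OI, from 30.7 CPM in KO_CTR to 43.5. Against KO_CTR 5 of the 8 fell, where 14.2% of all genes did, and 1 rose, where 13.0% did. These shifts moved with the groups compared below and their part in the results was not tested; in RNA from whole cultures, fewer cells of a type and less RNA per cell cannot be told apart. Acod1 itself had 24, 27 and 55 reads in WT_CTR, 60, 86 and 47 in KO_CTR and 135, 168 and 131 in KO_4OI, so its reads do not separate the genotypes as labelled and the genotype is used here as a label. Xist reads were present in 1 WT_CTR library (replicate 2) and 1 KO_4OI library (replicate 3) and at 0 in the other 7.

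Per kilobase of exon, the 8 genes spanned more than 3 orders of magnitude. In WT_CTR the mean level per length was 83.3 ± 20.2 CPM per kb for Ifi27l2a and 81.1 ± 12.2 for Bst2, whose ranges overlapped. Isg15 followed at 9.43 ± 2.37 and Rtp4 at 5.90 ± 0.486 CPM per kb. Xaf1 and Cmpk2 lay close together at 1.3 ± 0.12 and 1.13 ± 0.197 CPM per kb with overlapping ranges, above Rsad2 at 0.736 ± 0.183 and Ifi44 at 0.0583 ± 0.0249. KO_CTR kept Ifi27l2a first at 180 ± 61.9 CPM per kb, now without overlap with Bst2 at 107 ± 20.0. In KO_4OI the order changed: Bst2 was first at 83.5 ± 1.33 CPM per kb, Ifi27l2a second at 16.4 ± 1.95, and Rtp4 had moved below Cmpk2 and Xaf1 to 0.245 ± 0.0197.

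**Figure D1:**
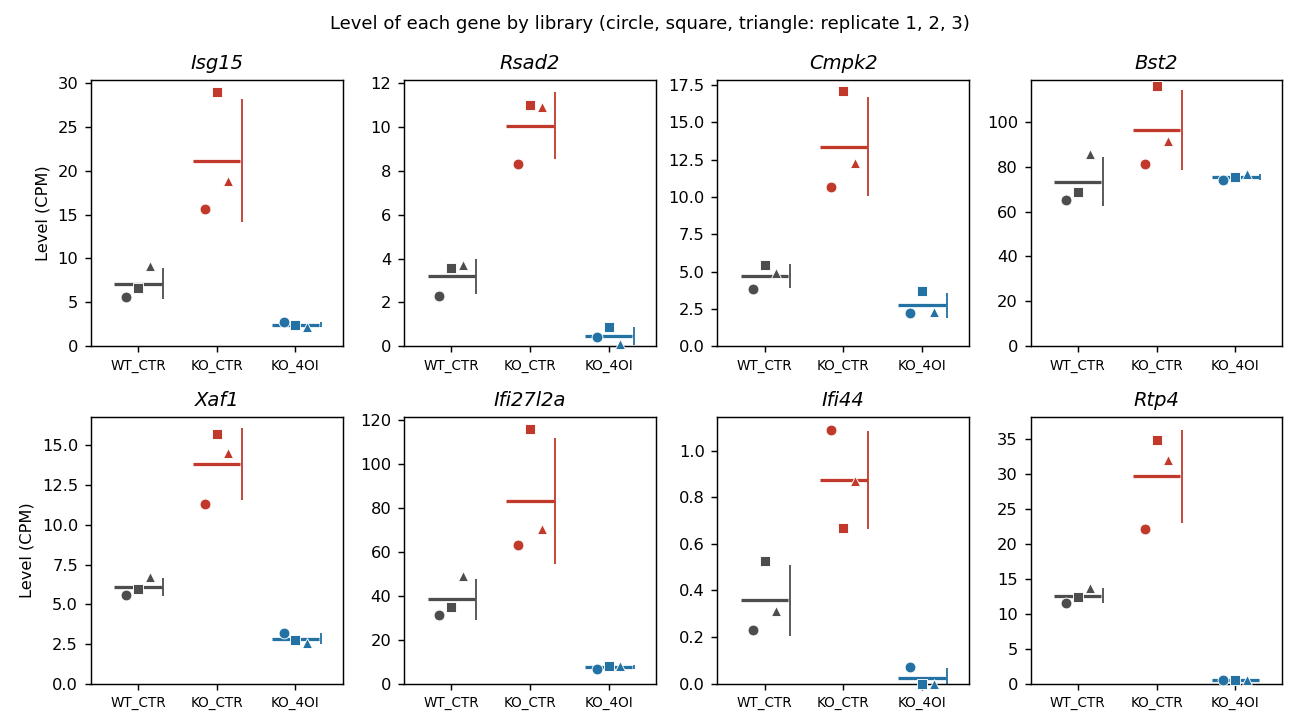
Level of each of the 8 genes in CPM (vertical axes, from 0, scaled per gene) in the 3 libraries of each group; symbols mark replicates 1 to 3, horizontal lines the mean and vertical lines 1 SD. Apart from Bst2, the KO_CTR libraries lie above all WT_CTR libraries and the KO_4OI libraries below them.

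In untreated cells labelled Acod1-deficient 5 of the 8 genes passed the test as higher than in wild-type cells. These calls were lost when any 1 of 3 libraries was left out, as given below. All 8 had a positive log2 fold change, with a median of 1.26 against −0.03 over all genes tested, and Isg15, Rsad2, Cmpk2, Xaf1 and Rtp4 rose, where 0.470% of all genes were called higher. None fell, where 0.0491% of all genes were called lower. In 7 of the 8, all but Bst2, every KO_CTR library lay above every WT_CTR library, which held for 10.2% of all genes. The calls were edgeR quasi-likelihood tests with Benjamini-Hochberg adjustment over all genes, at 0.05.

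Isg15 stood at 5.64, 6.62 and 9.12 CPM in WT_CTR and at 15.6, 29.0 and 18.8 CPM in KO_CTR. The groups did not overlap, although the KO_CTR libraries were further apart from each other than the lowest of them was from the highest WT_CTR library. The fitted log2 fold change was 1.56 ± 0.25 (SE), a 2.95-fold difference, with an adjusted p of 0.0215.

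Rsad2 was at 2.28, 3.56 and 3.73 CPM in WT_CTR and 8.33, 11 and 10.9 CPM in KO_CTR, with no overlap. Its neighbour Cmpk2 was at 3.82, 5.44 and 4.90 CPM in WT_CTR and 10.7, 17.1 and 12.3 CPM in KO_CTR, again with no overlap. Rsad2 had the highest fitted rise of the 8, 1.65 ± 0.33 on the log2 scale, but only just passed the threshold with an adjusted p of 0.0496. Cmpk2 rose by 1.5 ± 0.24 on the log2 scale (adjusted p = 0.0232).

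Xaf1 was at 5.6, 5.93 and 6.70 CPM in WT_CTR, a narrow range, and at 11.3, 15.7 and 14.5 CPM in KO_CTR. It rose by 1.18 ± 0.18 on the log2 scale (adjusted p = 0.0197). Rtp4 was at 11.6, 12.4 and 13.7 CPM in WT_CTR and 22.2, 34.9 and 32 CPM in KO_CTR, and rose by 1.24 ± 0.18 (adjusted p = 0.0181), the smallest adjusted p of the set. Both had tight wild-type groups, with coefficients of variation of 9.27% and 8.24%.

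The other 3 did not pass. Ifi27l2a was at 31.4, 35.1 and 49.1 CPM in WT_CTR and 63.1, 116 and 70.4 CPM in KO_CTR, without overlap but with a wide KO_CTR group, and its log2 difference of 1.11 ± 0.24 had an adjusted p of 0.0602. Ifi44 was the scarcest, with 6, 16 and 11 reads in WT_CTR and 33, 16 and 24 in KO_CTR. Its log2 difference was 1.28 ± 0.46 (adjusted p = 0.181), at a depth where the pooled reads allow a ratio of 1.63 to 3.88 from counting error alone. Bst2 was at 65.1, 68.9 and 85.8 CPM in WT_CTR and 81.2, 116 and 91.5 CPM in KO_CTR, overlapping, with a log2 difference of 0.39 ± 0.16 and an interval of 0.04 to 0.75 (adjusted p = 0.236).

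In the untreated groups the same libraries were high or low for most of the 8 genes. In WT_CTR replicate 1 was lowest for 8 of 8 genes and replicate 3 highest for 6. In KO_CTR replicate 2 was highest for 7 of 8, all but Ifi44, for which it was lowest, and replicate 1 was lowest for 7. In KO_4OI no library stood out in this way: replicates 1, 2 and 3 were highest for 3, 4 and 1 genes.

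The 5 calls in this comparison were all lost when any 1 of 3 libraries was left out, as were most calls over all genes. Without WT_CTR replicate 1, without WT_CTR replicate 2 or without KO_CTR replicate 3, 0 of 8 genes passed the edgeR test, though 6, 7 and 8 of them had an unadjusted p under 0.05. Of all genes tested in these fits, 0 of 14607, 4 of 14573 and 3 of 14591 passed. An unadjusted p under 0.05 was held by 1315, 1610 and 2900 of all genes in the same order. Without both libraries that hold Xist reads 0 of 8 passed, where 0.0345% of all genes were called higher. There 7 of the 8 had an unadjusted p under 0.05, as did 1580 of all 14486 genes. When the replicate number was a block only Cmpk2 passed (adjusted p = 0.0345), where 0.0421% of all genes were called higher. With DESeq2 Ifi27l2a passed too, making 6 of 8 where 3.32% of all genes were called higher. Ifi27l2a also passed with upper-quartile scaling, without the low-count filter, without WT_CTR replicate 3 and without KO_CTR replicate 2. Rsad2 also lost its call without KO_CTR replicate 1 (adjusted p = 0.0956), without KO_4OI replicate 1 (adjusted p = 0.0875) and with limma-trend (adjusted p = 0.109), which called 4 of 8. The log2 fold change of each of the 8 stayed positive under all 17 alternatives. It ran from 1.32 to 1.83 for Isg15, 1.47 to 1.84 for Rsad2 and 1.34 to 1.64 for Cmpk2. For Xaf1 it ran from 1.13 to 1.31 and for Rtp4 from 1.16 to 1.41. Among the genes not called it ran from 0.84 to 1.37 for Ifi27l2a, 1.07 to 1.66 for Ifi44 and 0.29 to 0.58 for Bst2.

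**Figure D2:**
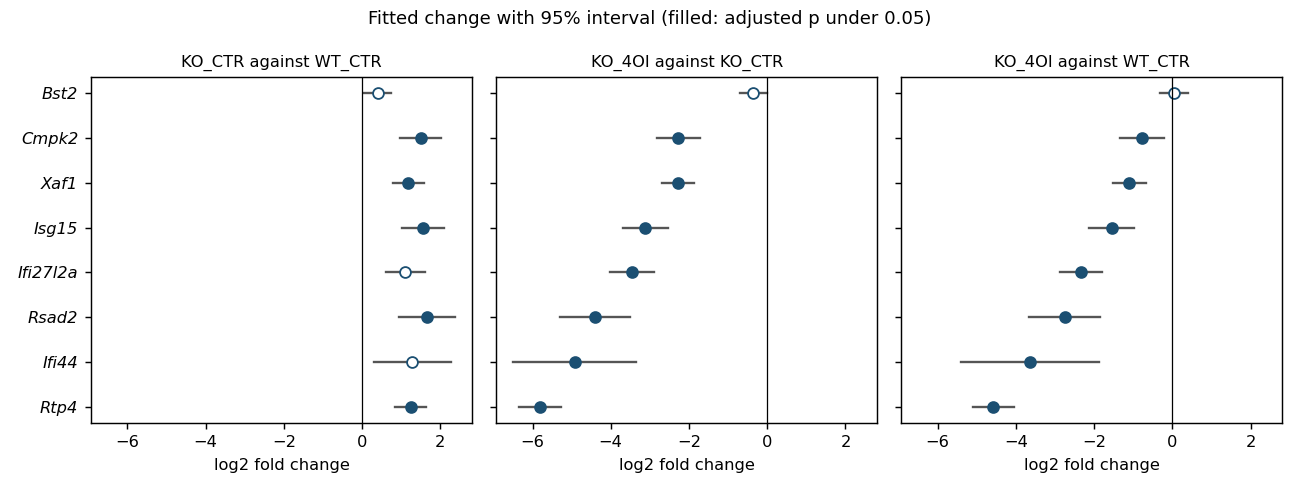
Fitted log2 fold change of each gene (horizontal axis) in the 3 comparisons, with its 95% interval as a line; filled points have an adjusted p under 0.05. Bst2 lies nearest to 0 in all 3 comparisons, and Rtp4 has the lowest value in both comparisons of 4-OI-treated cells.

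With 4-OI, 7 of the 8 genes fell below untreated cells of the same label, all but Bst2, where 14.2% of all genes were called lower. None rose, where 13.0% of all genes were called higher. The median log2 fold change of the 8 was −3.28 against 0.02 over all genes tested, and for all 8 every KO_4OI library lay below every KO_CTR library, which held for 19.6% of all genes. No call of the 8 changed under any of the 17 alternatives. This comparison and the one above share the KO_CTR libraries, so the values of the 2 comparisons are not independent.

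Rtp4 fell furthest, to 0.477, 0.560 and 0.530 CPM from 22.2, 34.9 and 32 CPM. Only 13, 15 and 14 reads were left, and the treated libraries differed little, with a coefficient of variation of 8.06%. The log2 fold change was −5.82 ± 0.25 (SE; adjusted p = 6.81e-09), a 56.4-fold difference in the fit.

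Ifi44 dropped to 2, 0 and 0 reads, against 33, 16 and 24. The ratio of pooled reads was 37.0 in favour of KO_CTR, with a counting interval of 9.87 to 311, and the fitted value of −4.92 ± 0.73 (adjusted p = 0.000248) carries the same uncertainty. Without KO_4OI replicate 1, which holds both reads, the fit gave −7.65.

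Rsad2 and Cmpk2 fell by unequal amounts. Rsad2 dropped to 0.403, 0.896 and 0.113 CPM, which is 11, 24 and 3 reads, a fitted log2 fold change of −4.41 ± 0.42 (adjusted p = 5.9e-06). Without KO_4OI replicate 2, the highest of the treated libraries, that value was −5.25. Cmpk2 kept 2.24, 3.73 and 2.31 CPM, a log2 fold change of −2.28 ± 0.26 (adjusted p = 2.65e-05).

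These genes lie 12.8 kb apart on chromosome 12 on opposite strands, Rsad2 at chr12:26442746-26456452 and Cmpk2 at chr12:26469204-26479837 (build mm10), and no gene of the annotation overlaps either. Reads of Rsad2 per read of Cmpk2 were 0.596, 0.655 and 0.762 in WT_CTR and 0.775, 0.645 and 0.886 in KO_CTR, and those ranges overlapped. In KO_4OI the ratio was 0.180, 0.240 and 0.0492, below every untreated library. Both genes rose in KO_CTR, by 1.65 and 1.5 on the log2 scale, while with 4-OI the mean log2 ratio of the pair was lower by a difference of −2.57 against KO_CTR and −2.37 against WT_CTR. An exact two-sided permutation test over libraries gave p = 0.1 for each, the smallest p that 3 against 3 can reach, and p = 0.3 for KO_CTR against WT_CTR.

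**Figure D3:**
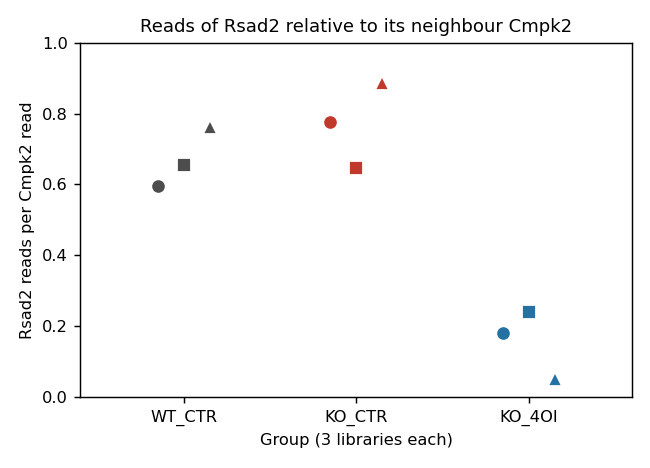
Reads of Rsad2 per read of Cmpk2 (vertical axis, from 0) in each library, by group; symbols mark replicates 1 to 3. The untreated libraries lie between 0.596 and 0.886 and the 4-OI-treated libraries between 0.0492 and 0.240.

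Isg15 dropped to 2.71, 2.43 and 2.16 CPM with 4-OI, a log2 fold change of −3.11 ± 0.27 (adjusted p = 2.74e-06). Ifi27l2a dropped to 6.57, 8.21 and 8.02 CPM, a log2 fold change of −3.45 ± 0.26 (adjusted p = 8.05e-07), which left 9.15% of its KO_CTR mean. Xaf1 dropped to 3.19, 2.76 and 2.57 CPM, a log2 fold change of −2.28 ± 0.19 (adjusted p = 2.42e-06). In each of these the treated libraries lay close together and far from the untreated ones.

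Bst2 stood apart. Its treated libraries held 74.2, 75.5 and 76.6 CPM, the narrowest group of any member with a coefficient of variation of 1.60%, against 81.2, 116 and 91.5 CPM in KO_CTR. The groups did not overlap, but the log2 difference of −0.35 ± 0.16 had an adjusted p of 0.129 and an interval from −0.70 to −0.0016. That interval does not reach a 2-fold change in either direction. Bst2 is also a marker of plasmacytoid dendritic cells and plasma cells. The 10 other plasmacytoid dendritic cell markers, all with reads, summed to 35.4 to 39.1 CPM in WT_CTR, 47.4 to 58.2 in KO_CTR and 34.6 to 48.7 in KO_4OI, below the level of Bst2 alone in every library. The 8 B and plasma cell markers, all with reads, summed to 225 to 265 CPM in WT_CTR, 241 to 377 in KO_CTR and 129 to 173 in KO_4OI. These sums lay above the level of Bst2 in each group, but most of each was 1 gene, Sdc1. Its mean was 219 CPM in WT_CTR, 253 in KO_CTR and 116 in KO_4OI. Against KO_CTR 0 of the 8 B and plasma cell markers rose with 4-OI, where 13.0% of all genes did. In that comparison 1 fell, where 14.2% of all genes did. Of the 9 plasmacytoid dendritic cell markers tested, 0 rose and 3 fell against KO_CTR, and 0 rose and 0 fell against WT_CTR. In KO_4OI against WT_CTR 3 of the 8 B and plasma cell markers rose, where 12.1% of all genes did, and 1 fell, where 12.2% did. The part of these cells in the level of Bst2 was not tested.

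Against wild-type cells, the treated cells had less RNA of 7 of the 8 genes, all but Bst2, where 12.2% of all genes were called lower. None rose, where 12.1% of all genes were called higher. The median log2 fold change was −1.95 against −0.03 over all genes tested, and for the same 7 every KO_4OI library lay below every WT_CTR library, which held for 22.1% of all genes. This comparison shares its libraries with the other two.

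The depth of the drop differed widely among members. Rtp4 had 4.14% of its wild-type mean left (log2 fold change −4.58 ± 0.25, adjusted p = 3.73e-08), and Rsad2 had 14.8% (−2.75 ± 0.42, adjusted p = 0.000345; −3.60 without KO_4OI replicate 2). Ifi27l2a had 19.7% left (−2.34 ± 0.25, adjusted p = 1.7e-05), Isg15 34.1% (−1.55 ± 0.26, adjusted p = 0.00076) and Xaf1 46.7% (−1.10 ± 0.19, adjusted p = 0.000987). Ifi44, on 2 reads against 33, had a log2 fold change of −3.64 ± 0.82 (adjusted p = 0.00512; −6.37 without KO_4OI replicate 1), and the pooled reads differed 14.8-fold with a counting interval of 3.8 to 128.

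Cmpk2 was nearest to wild type among those that fell, with 58.5% of the wild-type mean and a log2 fold change of −0.78 ± 0.26 (adjusted p = 0.0411). That call was lost without WT_CTR replicate 2 or 3, without KO_CTR replicate 3, and without KO_4OI replicate 1 or 3, with an adjusted p of up to 0.169 among these, and with upper-quartile scaling (adjusted p = 0.0501). Without both libraries that hold Xist reads neither Cmpk2 (adjusted p = 0.289) nor Ifi44 (adjusted p = 0.0651) passed, which left 5 of 8. Bst2 differed from wild type by 0.04 ± 0.16 on the log2 scale with an interval of −0.31 to 0.39 (adjusted p = 0.898).

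Pairs of members were compared by the root-mean-square difference of their centred log2 CPM over the 9 libraries. Of the 28 pairs the closest were Cmpk2 with Xaf1 at 0.295, Isg15 with Xaf1 at 0.364 and Isg15 with Ifi27l2a at 0.367. Rsad2 and Cmpk2, despite their shared neighbourhood, were the 19th closest at 1.12, and Bst2 and Rtp4 were the least alike at 2.33. All points share library depth and group, so these distances are a description.

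The genes that attach and remove Isg15 moved in part with it. In KO_CTR against WT_CTR 1 of 5 rose, where 0.470% of all genes did. This was Usp18, the protease that removes Isg15 and also restrains the interferon receptor. It went from 2.98 ± 0.388 to 8.94 ± 2.18 CPM, a log2 fold change of 1.58 ± 0.25 (adjusted p = 0.0215). Its call was lost without WT_CTR replicate 1 or 2, without KO_CTR replicate 3, without both libraries with Xist reads and when the replicate number was a block (highest adjusted p = 0.177). With 4-OI 4 of the 5 fell below KO_CTR, where 14.2% of all genes did. These were Usp18, to 0.619 ± 0.233 CPM (log2 fold change −3.84), the E2 enzyme Ube2l6, from 160 ± 23.1 to 56.0 ± 3.53 CPM (−1.51), the ligase Herc6 (−0.90) and the E1 enzyme Uba7 (−0.75). Herc6 lost its call without the libraries that hold Xist reads (adjusted p = 0.0535). Trim25, a ubiquitin and Isg15 ligase, was at 141 ± 17.9 and 134 ± 8.48 CPM (−0.08, adjusted p = 0.694). Against wild type Usp18 (−2.26) and Ube2l6 (−1.11) fell, where 12.2% of all genes did, while Uba7 differed by −0.03 (adjusted p = 0.918).

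Relatives of the members gave few readable values. Ifi27, 1.93 kb from Ifi27l2a on chromosome 12, was at 180 ± 20.9 CPM in WT_CTR, 231 ± 29.8 in KO_CTR and 77.7 ± 3.94 in KO_4OI. It fell with 4-OI by a log2 fold change of −1.57 ± 0.15 (adjusted p = 5.12e-06) but had a log2 difference of 0.36 (adjusted p = 0.216) in KO_CTR against WT_CTR. Cmpk1, the cytosolic kinase related to Cmpk2, differed by 0.38 on the log2 scale with 4-OI (adjusted p = 0.0607), and Xiap, the partner of Xaf1, by 0.28 (adjusted p = 0.45). Ifi44l, Rtp1, Rtp2 and Rtp3 had 0 reads in every library, and Ifi27l2b, a close copy of Ifi27l2a, had too few to test, so reads that fit both copies equally well make Ifi27l2a less certain. Rtp4 spans other annotated loci, Masp1 on the opposite strand without exon overlap (7 reads in all libraries) and Gm45338 on the same strand with exon overlap (0 reads). How reads on the shared exons were counted is not known here, so the level of Rtp4 is less certain.

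Of 16 genes of interferon receptors and signalling, 0 passed in KO_CTR against WT_CTR by edgeR, and 7 had an unadjusted p under 0.05. Of all 14264 genes 74 passed and 2533 had an unadjusted p under 0.05. By DESeq2 6 of the 16 and 629 of all genes passed, and by limma-trend 0 of the 16 and 58 of all genes. The largest log2 difference by edgeR in that comparison was that of Irf7, a factor that amplifies interferon production, at 1.45 ± 0.32 (adjusted p = 0.0661). With 4-OI 4 of the 16 fell below KO_CTR, where 14.2% of all genes did. Among them were Irf7, from 36.5 ± 19.2 to 3.89 ± 0.171 CPM (log2 fold change −3.23), Irf9, from 42.6 ± 8.64 to 13.9 ± 0.95 CPM (−1.62), and Irf1 (−0.86). Jak2 alone of the 16 rose (0.53, adjusted p = 0.0299), where 13.0% of all genes did. That call was lost without KO_CTR replicate 2 or 3, without KO_4OI replicate 1 or 2, under the replicate block and with only the 2 groups compared (highest adjusted p = 0.0991). The receptor subunits Ifnar1 and Ifnar2 differed by −0.01 and −0.0002 on the log2 scale. Against wild type Irf7 (−1.78) and Irf9 (−0.75) fell, where 12.2% of all genes did, and Jak2 rose (0.52), where 12.1% did. The call of Irf7 held under all 17 alternatives, while those of Irf9 and Jak2 were lost without the libraries that hold Xist reads. The call of Irf9 was also lost without WT_CTR replicate 3, and that of Jak2 without any 1 of the WT_CTR libraries, without KO_4OI replicate 1 or 2 and under the replicate block (highest adjusted p of 0.0631 and 0.119).

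Reads of interferon genes were nearly absent. Of 21 such genes Ifnb1, which encodes interferon-beta, had 0 reads in all WT_CTR and KO_4OI libraries and 1, 5 and 3 in KO_CTR. These reads were too few to test, and no fold is given for them. Ifnk and Ifnz had 1 to 2 reads in a group and the other interferon genes had 0.

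The members were set beside a list of 50 other interferon-stimulated genes, 48 of them tested. In KO_CTR against WT_CTR 12 rose, where 0.470% of all genes did, and 0 fell (median log2 fold change 0.83). With 4-OI 36 fell, where 14.2% of all genes did, and 0 rose (median −1.37). Against wild type 15 fell, where 12.2% of all genes did, and 1 rose (median −0.25). The first count was 32 with DESeq2, where 3.32% of all genes were called higher, and 3 under the replicate block; it ran from 0 without WT_CTR replicate 1, where 39 had an unadjusted p under 0.05, to 22 without WT_CTR replicate 3, with 2 without WT_CTR replicate 2, 2 without KO_CTR replicate 3, 8 without KO_CTR replicate 1 and 19 without KO_CTR replicate 2. The 4 with the smallest p with 4-OI were Oasl2, Ifit1bl1, Oas2 and Ifit3, which belong to the Oas and Ifit families. Oasl2 was at 7.56 ± 1.16 CPM in WT_CTR, 24.0 ± 4.84 in KO_CTR and 1.44 ± 0.317 in KO_4OI, and Ifit3 at 3.32 ± 0.818, 14.8 ± 4.09 and 0.458 ± 0.235. Ifit1bl1 fell by a log2 fold change of −6.31 and Oas2 by −3.31 with 4-OI; the first value is below that of each of the 8 members. Reads of Ifit and Oas paralogs may be shared between copies, which makes single values less certain.

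Of the genes with a mean of at least 5 CPM, 9888 were ranked by how closely their centred log2 CPM followed the mean of the 8 members over 9 libraries. The nearest was Coq8a, a mitochondrial kinase-like protein needed to make coenzyme Q, with a root-mean-square difference of 0.194. It stood at 332 ± 79.9 CPM in WT_CTR, 658 ± 183 in KO_CTR and 90.2 ± 1.26 in KO_4OI. Ifi211 (0.237), Tmem176b (0.270), Mx1 (0.273) and Stap2 (0.307) followed. Ifi211 and Mx1 are interferon-stimulated, Tmem176b is a membrane protein of dendritic cells and macrophages, and Stap2 is a signalling adaptor. They share library depth with the members, and a gene that follows the mean by this measure also moves by about the same amount.

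**Figure D4:**
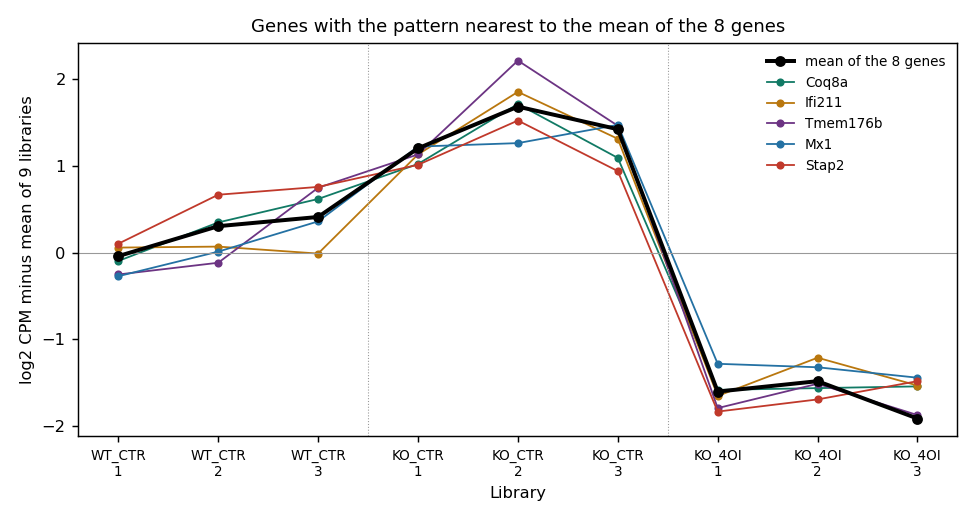
Log2 CPM minus its mean over the 9 libraries (vertical axis) in each library (horizontal axis) for the mean of the 8 genes and the 5 genes nearest to it. Coq8a follows the mean with a root-mean-square difference of 0.194 and Stap2 with 0.307.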

How the data were processed

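The measurement is RNA-seq of 9 libraries, 3 a group. The deposited values are whole-number counts of reads for each Ensembl gene ID, made by the authors with fastp, STAR and HTSeq 0.6.1 on mm10, per the submitters' processing notes. For the annotation release and the strand setting: not given in the sources used here. The counts were used as deposited. Gene symbols came from a gene name table (123 IDs had none) and coordinates from GENCODE M21.

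Genes were kept with filterByExpr (minimum count 10), scaled with TMM and fitted in 1 model of all 9 libraries with edgeR 4.0.16 (quasi-likelihood, group only, R 4.3.3). P-values are two-sided and adjusted by Benjamini-Hochberg over 14264 genes at 0.05. The common biological coefficient of variation was 0.179. Standard errors are the log2 fold change over the root of the quasi-likelihood F. CPM use TMM-adjusted totals and are given as mean ± SD. Ratios of pooled reads have exact 95% intervals that cover counting error only. The method was tested on simulated data.

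The members and gene lists were chosen with earlier results of these data known. Some genes of the other lists are not reported here. All members are named, and of the other lists those with a stated role, the 4 with the smallest p, and the nearest genes by pattern. Pairs of libraries of a group differed by more than sampling noise. Alternatives tried were scaling by RLE or upper quartile, leaving out the filter on low counts, DESeq2 1.42.0, limma-trend (limma 3.58.1), only the 2 groups compared, a replicate block, both libraries with Xist reads left out, and each library left out in turn.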

Additional observations from a re-analysis of the deposited data

How the results depend on the processing

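Of 24 member results, 407 values were computed under 17 alternatives; 364 kept their direction and side of the threshold, 35 lost a call, 5 gained one and 3 changed sign. The single value that could not be fitted was Ifi44 in KO_4OI against WT_CTR with only the 2 groups compared, where it failed the low-count filter. The changes of sign were Bst2 in KO_4OI against WT_CTR, at −0.012 without the libraries that hold Xist reads, −0.039 without WT_CTR replicate 1 and −0.0020 without WT_CTR replicate 2, against 0.04; leaving out 1 library gave −0.039 to 0.21. Ifi44 in that comparison lost its call without the libraries that hold Xist reads (adjusted p = 0.0651).

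In KO_CTR against WT_CTR 74 genes and 5 members passed. Genes numbered 144 with upper-quartile scaling, 879 without the low-count filter, 629 with DESeq2 and 5 without the libraries that hold Xist reads, where 0 members passed. Under the replicate block 6 genes and 1 member passed. Same-numbered libraries deviated from their group means with correlations of −0.408 to 0.317, and differently numbered ones with −0.415 to 0.544. With 3 libraries a group these values cannot decide whether same-numbered libraries are paired, and the labels do not say. Leaving out 1 library gave 0 to 247 genes and 0 to 6 members; the 0 genes without WT_CTR replicate 1, by edgeR, compare with 1315 at an unadjusted p under 0.05. The cause was not tested.

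The counts of genes in KO_4OI against KO_CTR (3887) and KO_4OI against WT_CTR (3466) stayed within 1.5 times under all 17 alternatives, and the members called were 7 and 5 to 7. The block changed no member's call in either. Depth limits Ifi44, Rsad2 and Rtp4 in treated cells, where 2, 38 and 42 reads were left over 3 libraries.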

Other observations

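The protein-coding genes next to the members did not all move with them. Agrn, a matrix protein that lies 1.94 kb from Isg15, had a log2 difference of 0.10 in KO_CTR against WT_CTR (adjusted p = 0.819) and fell with 4-OI from 33.7 to 14.4 CPM (log2 fold change −1.23, adjusted p = 0.0005). Mvb12a, 5.47 kb from Bst2, was at 68.7, 78.4 and 66.8 CPM in WT_CTR, KO_CTR and KO_4OI (adjusted p of 0.325 or more in all 3 comparisons). Rnf144a, 27.5 kb from Rsad2 on the side away from Cmpk2, had a log2 difference of 0.49 with 4-OI (adjusted p = 0.105), and AW011738, 2.49 kb from Isg15, one of −1.82 (adjusted p = 0.0607) at under 1 CPM. Adgrl4, 186 kb from Ifi44, rose in KO_4OI against WT_CTR (2.05, adjusted p = 0.0209), also at under 1 CPM (0.233 in WT_CTR and 0.943 in KO_4OI).

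Coq8a, whose pattern was nearest to that of the members, missed the threshold in KO_CTR against WT_CTR (log2 difference 0.99, adjusted p = 0.0529) and fell with 4-OI by a log2 fold change of −2.87 (adjusted p = 8.05e-07).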
